A study of Mus musculus with 45 samples.

Results

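Cdx1, Cdx2 and Osr2 are 3 transcription factor genes, grouped here under the name of caudal and distal gut factors. Their messenger RNA was followed through sorted epithelial cells of the mouse embryonic intestine. The name is not a result, and only Osr2 of the 3 was called between the gut parts below. The 3 genes were picked by name and found by symbol among the 23366 genes counted, and all 3 passed the filter on low counts that left 15513 genes for testing. Levels are given as CPM, the reads of a gene relative to all reads assigned to genes in the same library, scaled to a common total. The 45 libraries formed 15 groups of 3. Replicates are separate biological samples. All embryos were wild type, of mixed C57BL/6 CD1 background, and their gut tissue is given as small intestine. Every library was made from 500 sorted cells of the intestinal epithelium, taken on the epithelial surface protein EpCAM. Cells of 3 embryos were pooled for a replicate at E13.5, and a single embryo gave a replicate at E15.5.

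In every group the cells came from embryos in which a red tdTomato label had been started at E9.5, under Axin2 (a Wnt target gene) in 1 line and under Id2 (a gene for an inhibitor of DNA-binding factors) in the other. Which construct drives the label is not stated in the sources at hand. The sort used tdTomato together with Lgr5, the receptor that marks intestinal stem cells. It gave 4 gates: unlabelled Lgr5-negative cells, unlabelled Lgr5-positive cells, labelled Lgr5-positive cells, and cells called tdTomato-positive with no Lgr5 state named, here called labelled cells. The Axin2 line was sampled at E13.5 with no gut part named and at E15.5 in the anterior and the posterior part of the gut, and the Id2 line at E13.5 with no gut part named. The anterior part is described here without labelled Lgr5-positive cells.

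Cdx1 and Cdx2 are homeobox factors of the caudal family. Cdx2 sets and keeps intestinal identity in the endoderm, and its loss in the mouse embryo lets foregut features appear in the distal gut. Cdx1 follows in the intestinal epithelium, shares targets with Cdx2 and is known as a target of Wnt signalling. Osr2 belongs to the odd-skipped family of zinc finger factors and is best known from palate, limb and kidney development.

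Reads assigned to genes ran from 16521311 to 19702205 per library in the Axin2 line and from 26888154 to 37729425 in the Id2 line. Reads not assigned to a gene made up 23.9 to 29.4% of the reads in the Axin2 line and 33.4 to 49.0% in the Id2 line. Line, depth and this share cannot be told apart, so levels in the 2 lines are set side by side without a test. The 10 epithelial markers summed to 3563 to 8436 CPM in every library, and none of them was at 0 in any group. The Lgr5 gate could be read in the counts: at E13.5 in the Axin2 line Lgr5 stood at 0.874 to 7.26 CPM in Lgr5-negative and 30.5 to 107 CPM in unlabelled Lgr5-positive libraries. The Id2 line showed it at 7.36 to 37.9 and 57.3 to 68.2 CPM. As a log2 fold change (± SE), Lgr5 differed by 4.02 ± 0.84 in the Axin2 line at E13.5 (edgeR adjusted p = 0.00687). In the Id2 line it differed by 1.28 ± 0.74 (edgeR adjusted p = 0.544) and was not called. At E15.5 the value was 2.45 ± 0.78 in each gut part, and Lgr5 was not called there either. Because these are bulk libraries, fewer cells of a type and less RNA per cell cannot be told apart in any result that follows.

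Cdx1 was the member with the widest range. In the Axin2 line it was low at E13.5 outside the Lgr5-positive gates and high everywhere at E15.5. Unlabelled Lgr5-negative cells at E13.5 held 9.45, 9.001 and 9.78 CPM of Cdx1, and labelled cells held 39.1, 16.7 and 25.6 CPM. Unlabelled Lgr5-positive cells held 139.6, 142 and 153 CPM, and labelled Lgr5-positive cells 263, 134.9 and 355 CPM. The first 3 of these gates did not overlap with one another, and the labelled Lgr5-positive gate overlapped only with the unlabelled Lgr5-positive one. Here and below, lack of overlap between groups of 3 libraries is a description and not a test. The share of all genes that separate in the same way was not counted.

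At E15.5 the anterior part held 286, 259 and 233 CPM of Cdx1 in Lgr5-negative cells, 363, 338 and 356 CPM in labelled cells, and 515, 243 and 261 CPM in unlabelled Lgr5-positive cells. The posterior part held 326, 272 and 280 CPM in Lgr5-negative cells, 383, 313 and 407 CPM in labelled cells, 456, 488 and 487 CPM in unlabelled Lgr5-positive cells, and 429, 535 and 390.4 CPM in labelled Lgr5-positive cells. Every E15.5 library was above every E13.5 library of the 3 gates sampled at both stages, which reached 153 CPM. Only labelled Lgr5-positive cells at E13.5 reached into the E15.5 range.

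Averaged over the 3 gates sampled in all of these settings, Cdx1 rose between E13.5 and E15.5 by a log2 fold change of 3.41 ± 0.41 (SE; 10.6-fold; edgeR quasi-likelihood test, adjusted p = 4.16e-08). The mean was 60.4 ± 64.1 CPM (SD, n = 9) at E13.5 and 348 ± 90.6 CPM (SD, n = 18) at E15.5. Here n counts libraries of 3 gates and not embryos, and the SD includes the difference between gates. The test treated these libraries as independent, although same-numbered libraries deviated together in 9 of 17 comparisons checked. In this comparison 15.6% of all genes tested were called higher, at an adjusted p below 0.05, and 17.9% lower. The rise was 3.28 ± 0.43 to the anterior part (adjusted p = 2.46e-07, with 16.1% of genes called higher) and 3.53 ± 0.44 to the posterior part (adjusted p = 1.41e-07, with 11.9%). Stage goes with the number of embryos per replicate and with the dissection into parts, and these cannot be told apart.

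The ratio of mean Cdx1 between the stages was unlike in size from gate to gate. In Lgr5-negative cells the mean was 27.6 times as high in the anterior and 31.1 times as high in the posterior part as at E13.5. In labelled cells the ratios were 12.999 and 13.6. In unlabelled Lgr5-positive cells they were 2.35 and 3.30, and in labelled Lgr5-positive cells the posterior ratio was 1.799. The Lgr5-gate difference of unlabelled cells at E15.5 minus that at E13.5 was -3.44 ± 0.87 (95% interval -5.23 to -1.66). In the test over all 45 libraries this difference of differences missed the threshold (edgeR adjusted p = 0.108, with 0.168% of genes called). It passed with only the libraries of the Axin2 line that it compares (-3.45 ± 0.35, adjusted p = 1.16e-06) and in DESeq2 (adjusted p = 0.0135).

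**Figure D1:**
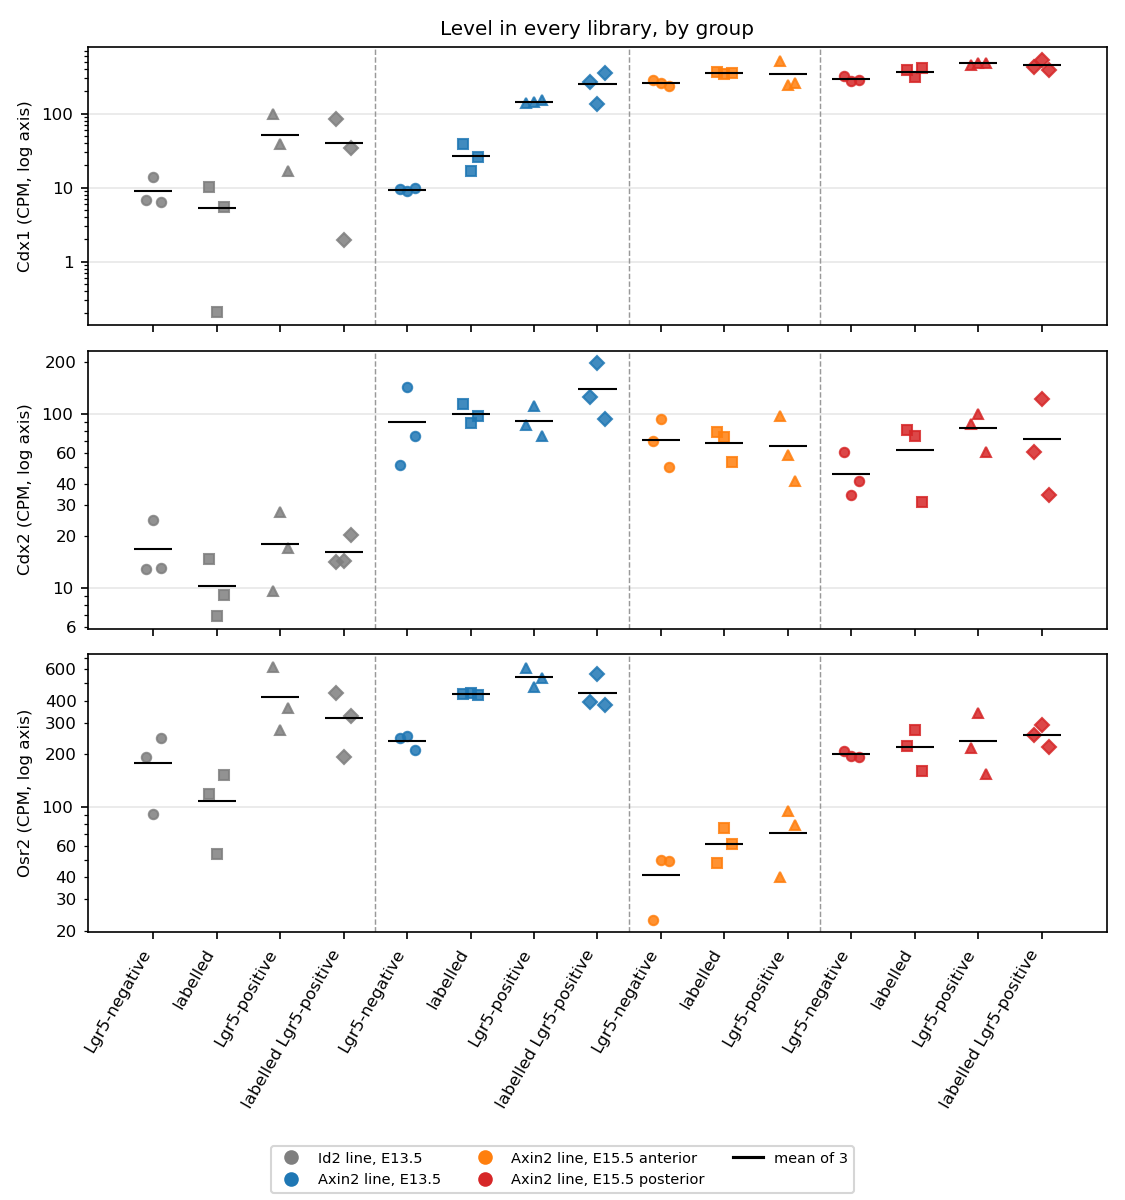
Level of Cdx1, Cdx2 and Osr2 in each of the 45 libraries, in CPM on a log axis, by group; points are libraries, bars are means of 3, and dashed lines separate the Id2 line, Axin2 E13.5, E15.5 anterior and E15.5 posterior. Mean Cdx1 climbs across the gates of the Axin2 line at E13.5, and Cdx1 lies between 233 and 535 CPM in all E15.5 libraries. Cdx2 stays between 31.3 and 196 CPM throughout the Axin2 line, and Osr2 is lowest in the anterior part, at 23.1 to 94.997 CPM.

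At E13.5 Cdx1 was higher with Lgr5. In unlabelled cells of the Axin2 line the log2 fold change was 3.91 ± 0.77 (15.0-fold; edgeR adjusted p = 0.00454), and all 3 Lgr5-positive libraries were above all 3 Lgr5-negative ones. In this comparison 0.438% of genes were called higher here. Among labelled cells of the same line, labelled Lgr5-positive cells were higher in Cdx1 than labelled cells by 3.19 ± 0.74 (9.16-fold; edgeR adjusted p = 0.0213, with 0.503% of genes called higher). This call was lost when any 1 of the 3 labelled libraries was left out, with values of 2.96 to 3.57, while all 3 labelled Lgr5-positive libraries stayed above the labelled ones. The first labelled Lgr5-positive library held 1167 CPM of mesenchymal markers against 71.2 and 7.15 CPM in the other two, and without it the fold change of Cdx1 was still called.

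Cdx1 was scattered in the Id2 line. Unlabelled Lgr5-positive cells held 97.6, 38.6 and 16.8 CPM of Cdx1 and unlabelled Lgr5-negative cells 6.73, 14.03 and 6.31 CPM, with no overlap. The log2 fold change of 2.50 ± 0.73 missed the threshold (edgeR adjusted p = 0.115, with 0.148% of genes called higher). DESeq2 gave an adjusted p of 0.0293, and without the 4 libraries numbered 2, each of which had the largest share of reads not assigned to a gene within its group, edgeR gave 3.12 ± 0.50 (adjusted p = 0.00235). Labelled Lgr5-positive cells held 84.97, 1.95 and 33.9 CPM of Cdx1 and labelled cells 10.1, 0.206 and 5.44 CPM. These groups overlapped: the labelled Lgr5-positive library numbered 2 lay below 2 of the labelled libraries, and in both groups the library numbered 2 was the lowest.

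The fitted difference between these 2 labelled groups was 3.00 ± 0.74 (edgeR adjusted p = 0.0350, with 0.67% of genes called higher). The call was lost with the libraries of the Id2 line alone (2.98 ± 1.15, adjusted p = 0.735), without the filter on low counts (adjusted p = 0.0648), and without either of 2 labelled libraries or the first labelled Lgr5-positive library (1.89 to 3.09). That first library held 918 CPM of mesenchymal markers. The other libraries of its group held 61.7 and 17.0 CPM, and the part of these cells in the difference was not tested. The Lgr5-gate difference of Cdx1 in the Id2 line minus that in the Axin2 line was -1.41 ± 0.99 (95% interval -3.42 to 0.60).

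At E15.5 no Lgr5 comparison of Cdx1 was called by edgeR over all libraries. In the posterior part the 3 unlabelled Lgr5-positive libraries were all above the 3 Lgr5-negative ones, with a log2 fold change of 0.59 ± 0.68 (adjusted p = 0.721, with 0.393% of genes called in either direction). With only the posterior libraries in the fit the same difference was 0.57 ± 0.13 (adjusted p = 0.0269). In the anterior part the value was 0.35 ± 0.68 (95% interval -1.04 to 1.73), and the groups overlapped. There edgeR called 0 genes, with 207 at an unadjusted p below 0.05 and 42 called by DESeq2. Among labelled cells of the posterior part the Lgr5-positive ones differed in Cdx1 by 0.26 on the log2 scale, and edgeR again called 0 genes, with 305 at an unadjusted p below 0.05 and 67 called by DESeq2.

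Cdx1 was called in no comparison of labelled with unlabelled cells. Labelled cells have no Lgr5 state named, so against Lgr5-negative cells the label and Lgr5 cannot be told apart. Between labelled and unlabelled Lgr5-positive cells the log2 fold change was 0.77 ± 0.68 at E13.5 in the Axin2 line, -0.05 ± 0.68 in the posterior part and -0.33 ± 0.68 in the Id2 line, and edgeR called 0.322%, 0% and 0.0387% of all genes in these comparisons. The 0 in the posterior part stood beside 371 genes at an unadjusted p below 0.05 and 56 called by DESeq2. Labelled cells against Lgr5-negative cells gave 1.49 ± 0.71 at E13.5 in the Axin2 line (95% interval 0.03 to 2.95), where the libraries did not overlap. The other 3 settings gave 0.39 ± 0.68 in the anterior part, 0.28 ± 0.68 in the posterior part and -0.83 ± 0.71 in the Id2 line. For this last kind of comparison edgeR called 0 genes in each of the 3 settings of the Axin2 line, against 133 to 385 at an unadjusted p below 0.05 and 31 to 70 called by DESeq2. It called 1 gene in the Id2 line, 0.00645% of those tested, which is not a member.

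Cdx1 was not called between the gut parts. Posterior against anterior at E15.5 it differed by 0.25 ± 0.39 on the log2 scale (95% interval -0.55 to 1.05; edgeR adjusted p = 0.913), with means of 379 and 317 CPM over the 3 shared gates. In this comparison 3.64% of all genes were called in either direction. In each single gate the 2 parts overlapped. The Lgr5-gate difference of Cdx1 in the posterior minus that in the anterior part was 0.24 ± 0.96 (95% interval -1.72 to 2.20), a comparison in which 0.00645% of genes were called. Across all 15 groups ordered by mean Cdx1, 12 of 14 neighbouring pairs overlapped. The steps without overlap were Lgr5-positive cells of the Axin2 line at E13.5 over those of the Id2 line, and labelled over Lgr5-negative cells of the Axin2 line at E13.5.

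Within the Axin2 line Cdx2 was the steady member, and its lower level in the Id2 line is described below. At E13.5 in the Axin2 line Lgr5-negative cells held 51.0, 144 and 74.9 CPM of Cdx2, labelled cells 115, 89.3 and 97.9 CPM, unlabelled Lgr5-positive cells 87.0, 112 and 75.4 CPM, and labelled Lgr5-positive cells 126, 196 and 94.3 CPM. All 4 gates overlapped. In the anterior part at E15.5 Lgr5-negative cells held 70.6, 94.2 and 49.9 CPM, labelled cells 78.9, 74.002 and 53.5 CPM, and unlabelled Lgr5-positive cells 98.3, 58.6 and 41.5 CPM. In the posterior part the same gates held 60.7, 34.2 and 41.5 CPM, 81.1, 75.5 and 31.3 CPM, and 87.9, 100.4 and 60.9 CPM, and labelled Lgr5-positive cells 60.4, 122 and 34.3 CPM. The posterior Lgr5-positive libraries were all just above the Lgr5-negative ones, and all other gates overlapped within each part.

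None of the 24 comparisons called Cdx2 in the edgeR fit without a replicate block, and 2 reached an unadjusted p below 0.05. These were the stage comparisons: E15.5 against E13.5 gave -0.47 ± 0.20 (95% interval -0.89 to -0.06; adjusted p = 0.0684, with 33.5% of all genes called in either direction), and the posterior part against E13.5 gave -0.55 ± 0.24 (adjusted p = 0.0907). The mean was 94.1 ± 27.2 CPM (SD, n = 9) at E13.5 and 66.3 ± 21.7 CPM (SD, n = 18) at E15.5, where n again counts libraries and not embryos. The stage value passed without the first Lgr5-negative library of E13.5 (-0.56) or the first anterior Lgr5-positive library (-0.51). With the replicate number as a block both stage values passed, at -0.49 ± 0.16 (edgeR adjusted p = 0.0165) and -0.57 ± 0.19 (edgeR adjusted p = 0.0245). The 2 stages come from different embryos, so the block pairs nothing between them. It only takes spread between replicate numbers out of the error, and these 2 passes do not show a change of Cdx2 with stage. Between the gut parts Cdx2 differed by -0.15 ± 0.24 (95% interval -0.64 to 0.33), and between the Lgr5 gates at E13.5 in the Axin2 line by 0.00 ± 0.41 (95% interval -0.84 to 0.84). In the posterior part the Lgr5-gate value was 0.76 ± 0.41 (adjusted p = 0.390).

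Cdx2 stood lower in the Id2 line than in any library of the Axin2 line. Its 12 libraries ran from 6.95 to 27.6 CPM with a median of 14.3 CPM, against 31.3 to 196 CPM and a median of 75.5 CPM in the 33 libraries of the Axin2 line. Of the 14 neighbouring pairs in the order of the 15 group means of Cdx2, 13 overlapped. The exception was the step from posterior Lgr5-negative cells, at 45.5 CPM, down to Lgr5-positive cells of the Id2 line, at 18.1 CPM.

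Because both caudal factors were counted in the same libraries, the reads of Cdx1 per read of Cdx2 show how their balance moved from group to group. At E13.5 in the Axin2 line the ratio was 0.0625 to 0.339 in the 6 libraries of Lgr5-negative and labelled cells. It was 0.687 to 3.77 in the 6 libraries of the Lgr5-positive gates and 2.75 to 13 in the 21 libraries of E15.5. Within the Axin2 line at E13.5 the 2 kinds of gate did not overlap, nor did Lgr5-negative and labelled cells overlap with E15.5. Transcript length enters this ratio equally in all groups, so it compares groups and not the levels of the 2 genes. Id2 libraries ran from 0.0297 to 10.1.

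Osr2 was high at E13.5 and split by gut part at E15.5. At E13.5 in the Axin2 line Lgr5-negative cells held 246, 252 and 211 CPM of Osr2, labelled cells 434, 441 and 432 CPM, unlabelled Lgr5-positive cells 614, 479.9 and 536 CPM, and labelled Lgr5-positive cells 392, 563 and 375 CPM. Lgr5-negative cells were below every other gate. Anterior cells at E15.5 held 23.1, 50.2 and 49.7 CPM in the Lgr5-negative gate, 48.1, 76.0 and 62.0 CPM in the labelled gate, and 40.2, 94.997 and 78.8 CPM in the unlabelled Lgr5-positive gate. Posterior cells held 209, 194 and 192 CPM in the Lgr5-negative gate, 222, 273 and 159 CPM in the labelled gate, 217, 339.7 and 154 CPM in the unlabelled Lgr5-positive gate, and 256, 289 and 218 CPM in the labelled Lgr5-positive gate. The highest anterior library, at 94.997 CPM, was below the lowest posterior one, at 154 CPM.

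Posterior against anterior, Osr2 was higher by 1.94 ± 0.21 on the log2 scale over the 3 shared gates (95% interval 1.51 to 2.37; 3.84-fold; edgeR adjusted p = 7.87e-08), where 1.86% of genes were called higher and 1.78% lower. Means were 218 ± 57.9 CPM (SD, n = 9) and 58.1 ± 22.1 CPM (SD, n = 9), where n again counts libraries and not embryos. Each gate alone gave a call. The values were 2.302 ± 0.37 in Lgr5-negative cells (adjusted p = 0.000661, with 0.206% of genes called higher), 1.84 ± 0.36 in labelled cells (adjusted p = 0.0100, with 0.193%) and 1.67 ± 0.36 in unlabelled Lgr5-positive cells (adjusted p = 0.0188, with 0.258%). The calls of the labelled and the Lgr5-positive gate were lost with 3 and 4 of their 6 libraries left out in turn, at values of 1.65 to 1.82 and 1.33 to 1.75. With the replicate number as a block, 113 genes rather than 42 were called between the parts in labelled cells, and Osr2 remained among them.

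Markers of exocrine pancreas moved with the gut part. All 7 matched the files, 6 were tested and these 6 were lower in the posterior part, where 1.78% of all genes were called lower. Their summed level was 78.6 to 1086 CPM over the anterior and 17.0 to 118 CPM over the posterior groups. In posterior cells Ptf1a, the factor that defines the acinar lineage, was at 0 in all libraries of the Lgr5-negative, labelled, Lgr5-positive and labelled Lgr5-positive gates. What the pancreatic markers contribute to the difference in Osr2 was not tested.

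Between E13.5 and E15.5 Osr2 fell by 1.74 ± 0.17 on the log2 scale (3.34-fold lower; edgeR adjusted p = 2.04e-10). The fall was 2.71 ± 0.22 to the anterior part (6.54-fold lower; adjusted p = 2.36e-12, with 15.9% of genes called lower) and 0.77 ± 0.20 to the posterior part (1.70-fold lower; adjusted p = 0.00453, with 12.4%). The test of the difference between these 2 falls is the comparison of the gut parts above. Against the anterior part the E13.5 mean was 5.77 times as high in Lgr5-negative, 7.02 times in labelled and 7.61 times in unlabelled Lgr5-positive cells. Against the posterior part it was 1.19, 2.00 and 2.296 times as high, and 1.74 times in labelled Lgr5-positive cells. Lgr5-negative cells of E13.5 and of the posterior part thus lay close together, at 237 ± 22.4 and 198 ± 9.05 CPM (SD, n = 3 each), and their libraries did not overlap.

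Some markers of other cell types were also called with stage, as were 33.5% of all genes tested. Over the 3 shared gates exocrine pancreas markers summed to 0.206 to 44.1 CPM at E13.5, 78.6 to 1086 CPM in the anterior and 17.0 to 59.4 CPM in the posterior part. All 6 tested were called higher in the anterior part than at E13.5, where 16.1% of all genes were. With both parts averaged, only Clps of these 6 was called. The counts that follow are from this average, which called 15.6% of all genes higher and 17.9% lower. Mesenchymal markers summed to 13.1 to 71.8 CPM at E13.5 and 5.63 to 106 CPM at E15.5, where Barx1 was called higher and Col3a1 lower of 10 tested. Liver markers summed to 118 to 332 CPM at E13.5 and 75.04 to 188 CPM at E15.5, with 1 of 4 called higher and 2 lower. Of 4 enteric neural markers 1 was called higher and 2 lower, of 4 mesothelial markers 1 higher and 1 lower, of 5 blood markers 1 higher, of 2 urogenital markers 1 higher and of 4 endothelial markers none. Their part in the stage differences of Cdx1 and Osr2 was not tested.

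**Figure D2:**
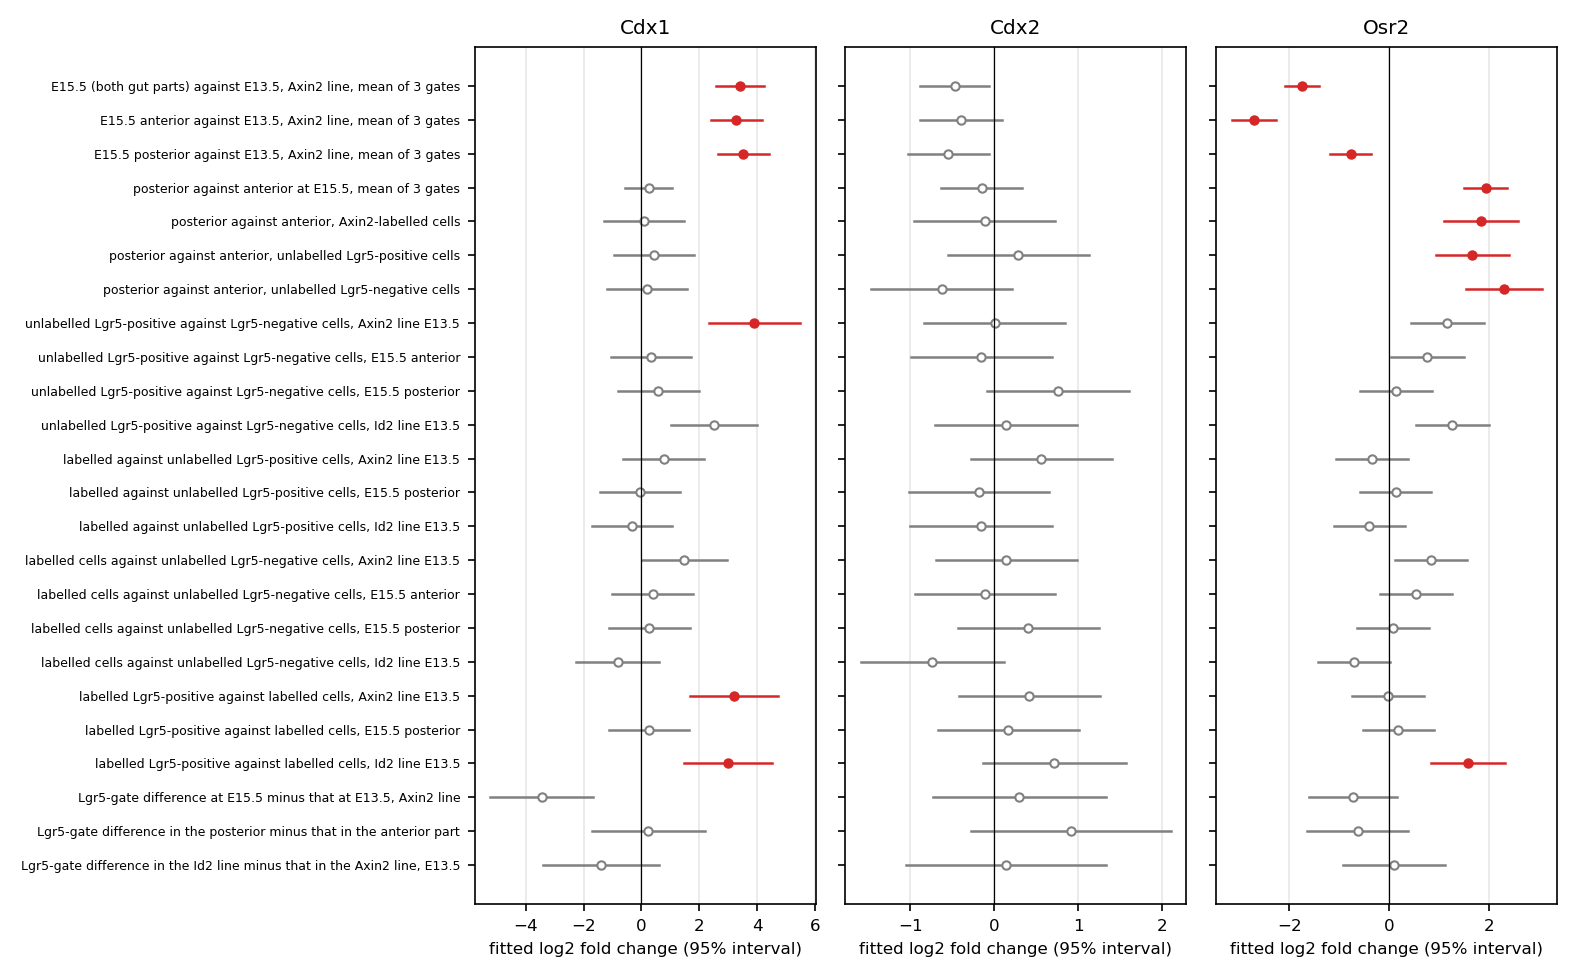
Fitted log2 fold changes of the 3 genes in all 24 comparisons, with 95% intervals from the edgeR fit; filled red points passed an adjusted p below 0.05 over all genes tested and open grey points did not. Cdx1 passes for stage and for the Lgr5 gates at E13.5 other than that of unlabelled Id2 cells, Osr2 for stage, gut part and the Lgr5 gate among Id2-labelled cells, and Cdx2 in none of these unblocked comparisons; horizontal scales differ between the panels.

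In unlabelled cells at E13.5 all 3 Lgr5-positive libraries stood above all 3 Lgr5-negative ones in Osr2, in both lines. The log2 fold change was 1.17 ± 0.36 in the Axin2 line and did not pass (2.25-fold; edgeR adjusted p = 0.169, with 0.438% of genes called higher). It was 1.27 ± 0.36 in the Id2 line (2.41-fold; adjusted p = 0.0968, with 0.148%), where Lgr5-positive cells held 621, 272 and 363 CPM of Osr2 and Lgr5-negative cells 191, 90.9 and 247 CPM. Same-numbered libraries deviated together in both comparisons. With the number as a block Osr2 was called in each, at 1.17 ± 0.20 (adjusted p = 0.000756) in the Axin2 line, where 220 genes were called against 0.87% of all genes without it, and at 1.33 ± 0.20 (adjusted p = 0.000762) in the Id2 line, where 268 rather than 74 were. With only the E13.5 libraries of the Axin2 line the value there was 1.15 ± 0.16 (adjusted p = 0.00387), and DESeq2 gave an adjusted p of 0.0252 in the Id2 line.

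Among labelled cells the 2 lines gave different values. In the Axin2 line labelled Lgr5-positive and labelled cells differed in Osr2 by -0.01 ± 0.35 (95% interval -0.73 to 0.71). In the Id2 line labelled Lgr5-positive cells held 440, 191 and 327 CPM and labelled cells 119, 54.2 and 151 CPM, with no overlap and a log2 fold change of 1.58 ± 0.36 (2.99-fold; edgeR adjusted p = 0.0189). This call was lost without the labelled library numbered 2 (1.28, adjusted p = 0.153) and with the Id2 libraries alone (1.57 ± 0.46, adjusted p = 0.457). With the number as a block 508 genes rather than 187 were called there and Osr2 remained among them. Whether the labelled gates of the 2 lines differ was not tested.

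Exocrine pancreas markers also went with the Lgr5 gate in the Id2 line. They summed to 372 to 2744 CPM in unlabelled Lgr5-negative cells and to 2.31 to 6.62 CPM in unlabelled Lgr5-positive cells. Mesenchymal markers, of which 11 of 12 matched, summed to 9.86 to 108 CPM in the former and 19.3 to 487 CPM in the latter. At E13.5 in the Axin2 line pancreatic markers stood at 0.206 to 44.1 CPM in Lgr5-negative cells and 0.411 to 0.589 CPM in unlabelled Lgr5-positive cells, and mesenchymal markers at 13.1 to 31.1 and 23.0 to 39.6 CPM. There 2 of the 11 mesenchymal markers, Twist1 and Barx1, were at 0 in all 3 Lgr5-positive libraries, Col3a1 and Acta2 were highest at means of 13.4 and 11.03 CPM, and none of the 10 tested was called. The part of other cell types in the Osr2 values of the Id2 line was not tested.

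Ordered by mean Osr2, the 15 groups ran from Lgr5-positive cells of the Axin2 line at E13.5, at 543 ± 67.2 CPM (SD, n = 3), down to anterior Lgr5-negative cells, at 41.0 ± 15.52 CPM (SD, n = 3), and all 14 neighbouring pairs overlapped. The 3 anterior groups took the 3 lowest places. At E15.5 the Lgr5 gate gave Osr2 values of 0.77 ± 0.36 in the anterior part (95% interval 0.04 to 1.498) and 0.14 ± 0.35 in the posterior part (95% interval -0.58 to 0.86). Neither was called. The difference of the Lgr5-gate effect between stages was -0.71 ± 0.43 (95% interval -1.60 to 0.17). Labelled against unlabelled Lgr5-positive cells gave -0.33 ± 0.35 at E13.5 in the Axin2 line, 0.13 ± 0.35 in the posterior part and -0.39 ± 0.35 in the Id2 line. Labelled against Lgr5-negative cells at E13.5 in the Axin2 line gave 0.85 ± 0.35 (95% interval 0.12 to 1.57; edgeR adjusted p = 1) and was not called. The libraries of these 2 groups did not overlap, which is a description and not a test.

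Part of the spread within groups went with the replicate number, a pattern chosen after the values were seen. In the posterior part the library numbered 3 was lowest in Osr2 in 4 of 4 gates. In the anterior part the library numbered 1 was lowest in 3 of 3, and in the Id2 line the library numbered 2 in 4 of 4. Cdx2 was lowest in the library numbered 3 in 6 of 7 groups of E15.5. Cdx1 showed no number that was lowest in all gates of a setting. What a number stands for is not stated in the labels.

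The 3 genes had unlike patterns over the groups of the Axin2 line, but not over those of the Id2 line. Over the 11 group means of the Axin2 line, Pearson's r of mean log2 CPM was -0.42 between Cdx1 and Cdx2, -0.35 between Cdx1 and Osr2 and 0.45 between Cdx2 and Osr2. With Lgr5 it was 0.63 for Cdx1, 0.26 for Cdx2 and 0.24 for Osr2. These are descriptions over 11 groups that share stages, gut parts and embryos. Over the 4 groups of the Id2 line the same 3 pairs gave 0.88, 0.99 and 0.84. With Lgr5 the values there were 0.86 for Cdx1, 0.754 for Cdx2 and 0.921 for Osr2.

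**Figure D3:**
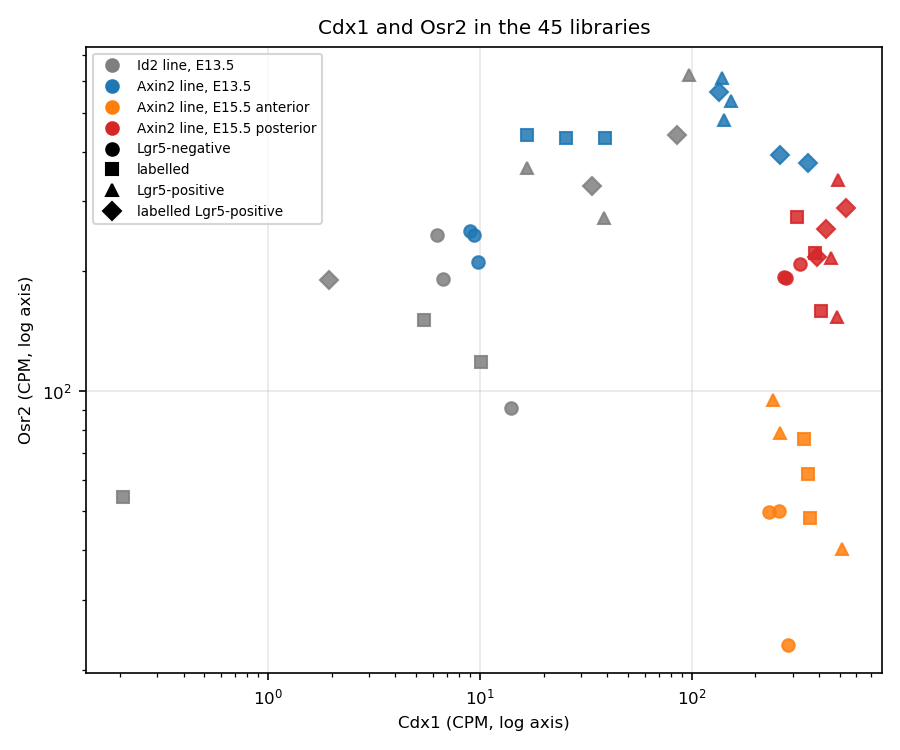
Cdx1 against Osr2 in each of the 45 libraries, both in CPM on log axes; colour gives line, stage and gut part, and symbol gives the gate. The E13.5 libraries of the Axin2 line run from low Cdx1 and 211 to 252 CPM of Osr2 in Lgr5-negative cells up to high values of both in Lgr5-positive cells, while the E15.5 libraries share high Cdx1 and separate by Osr2 at 94.997 against 154 CPM.

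Genes whose group means were most like those of each member were looked for among 1483 or 1484 genes of sufficient level and spread, over the same 11 groups. Closest to Cdx1 were the glucose cotransporter gene Slc5a1 (r = 0.987), Ppp1r1b (0.977), the intestinal surface glycoprotein gene Gpa33 (0.977), the nucleotide receptor gene P2ry1 (0.965) and Cd38 (0.965). Most opposite to it were Tdh (-0.964), Rbpms (-0.959) and the lysosomal lipase gene Lipa (-0.952). Over the 4 groups of the Id2 line Slc5a1 stood at 0.894 and Gpa33 at 0.513. Closest to Osr2 were Olfml1 (0.984), Emp2 (0.981), the Wnt secretion factor gene Wls (0.98), Zfp677 (0.973) and Bex1 (0.973), and most opposite Acadvl (-0.984), Dlat (-0.965) and Gstm3 (-0.954). In the Id2 line Bex1 stood at 0.995 and Zfp677 at -0.28. Closest to Cdx2 were Zfp553 (0.971), Gpr125 (0.966), Fam115a (0.963), 2610301G19Rik (0.961) and the DNA methyltransferase gene Dnmt3a (0.958), and most opposite Hist1h2bc (-0.944), Mob4 (-0.942) and Tomm5 (-0.919). In the Id2 line Zfp553 stood at 0.148, Gpr125 at 0.146 and Fam115a at 0.377, but 2610301G19Rik at 0.916 and Dnmt3a at 0.798. Cdx2 itself varied less over the 11 groups than the spread required of the compared genes.

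The relatives of the members were low. Cdx4, the third caudal gene of the mouse, was at 0 reads in 24 of 45 libraries and reached 13.995 and 14.9 CPM in 2 posterior unlabelled Lgr5-positive libraries, with 0 in the third. Osr1, the other odd-skipped gene, was at 0 in 13 of 45 libraries and reached 15.8 CPM in 1 unlabelled Lgr5-positive library of the Axin2 line at E13.5. It reached 14.3 CPM in the labelled Lgr5-positive library of the Id2 line that held 918 CPM of mesenchymal markers. Neither was called for stage, gut part or any Lgr5 gate described here.

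Of 13 intestinal genes known to depend on caudal factors in the mouse, 6 rose and 1 fell between E13.5 and E15.5 in the Axin2 line, against 15.6% and 17.9% of all genes tested. The median log2 fold change of the 13 was 0.76, and that of all genes -0.04. The liver-intestine cadherin gene Cdh17 rose by 1.12 ± 0.12, the claudin gene Cldn2 by 2.78 ± 0.35 and the villin gene Vil1 by 0.76 ± 0.13. The goblet cell mucin gene Muc2 rose, and in unlabelled Lgr5-positive cells it stood at no more than 0.696 CPM at E13.5, at 2.96 to 17.7 CPM in the anterior and at 12.6 to 23.7 CPM in the posterior part. The homeobox gene Isx fell by 0.64 ± 0.12. Gcg, Mep1a and the genes named here made up the 7.

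Between the gut parts 1 of the 13 was called, against 3.64% of all genes: Mep1a, the gene for a brush border protease subunit. It was higher in the posterior part by 1.49 ± 0.25 (edgeR adjusted p = 0.000134), and the median of the 13 was 0.01 against -0.02 for all genes. Mep1a was also the 1 gene of this list called with Lgr5 in unlabelled cells of the Axin2 line at E13.5, at 3.04 ± 0.46 (edgeR adjusted p = 0.000123). There the median of the list was -0.07, and 0.438% of all genes were called higher. Mep1a levels there were 15.1 ± 5.37 CPM (SD, n = 3) without and 126 ± 16.4 CPM (SD, n = 3) with Lgr5. Among labelled cells 2 of the 13 were called with Lgr5 in the Axin2 line and 1 in the Id2 line, all higher, against 0.503% and 0.67% of all genes. Muc2, called in the Axin2 line, stood at 0.116 to 10.7 CPM in labelled Lgr5-positive and at most 0.107 CPM in labelled cells. Mep1a was higher by 1.86 ± 0.44 in the Axin2 line (adjusted p = 0.0213) and by 3.9995 ± 0.48 in the Id2 line (adjusted p = 8.30e-06). Anterior cells at E15.5 held 48.2 to 56.3 CPM of Mep1a as group means and posterior cells 122 to 182 CPM.

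The stretch of 250 bases before the start of 3 genes is shown, for Cdx2 as a member and for Muc2 as the called list gene with the largest fitted change with stage, and for Mep1a as the list gene called both between the gut parts and with Lgr5 in unlabelled cells at E13.5. No window of Cdx1 or Osr2 is shown. Sequences are from RefSeq promoter windows of build GRCm38.p6, 5′ to 3′ on the strand of the gene. Capitals mark TTTAT and TTTAC, core letters of caudal binding sites, and CTTTGA, core letters of sites for the TCF and LEF factors of the Wnt pathway, each on either strand, and overlapping matches run together. Cdx2 lies at chr5:147307250-147307499 on the minus strand, Muc2 at chr7:141690090-141690339 on the plus strand and Mep1a at chr17:43502774-43503023 on the minus strand.
Cdx2: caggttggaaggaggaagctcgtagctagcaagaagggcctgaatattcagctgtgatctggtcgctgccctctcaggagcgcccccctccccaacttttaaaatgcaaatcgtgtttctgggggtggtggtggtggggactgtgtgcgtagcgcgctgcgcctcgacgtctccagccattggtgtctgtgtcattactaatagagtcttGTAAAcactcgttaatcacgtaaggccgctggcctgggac
Muc2: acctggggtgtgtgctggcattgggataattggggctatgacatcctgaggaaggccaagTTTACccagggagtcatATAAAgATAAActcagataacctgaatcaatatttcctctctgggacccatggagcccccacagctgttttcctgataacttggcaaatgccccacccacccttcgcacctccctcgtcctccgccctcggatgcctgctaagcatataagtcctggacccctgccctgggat
Mep1a: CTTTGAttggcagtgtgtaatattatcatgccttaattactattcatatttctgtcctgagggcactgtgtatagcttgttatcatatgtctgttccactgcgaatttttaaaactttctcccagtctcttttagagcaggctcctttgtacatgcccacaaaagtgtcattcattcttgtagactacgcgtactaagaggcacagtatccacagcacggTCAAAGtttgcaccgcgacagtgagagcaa

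The Cdx2 window held 1 TTTAC, which begins 40 bases before the start, on the opposite strand. The Muc2 window held 2 TTTAT, at 173 and 167 bases before the start, and 1 TTTAC at 190 bases. The Mep1a window held neither caudal core and 2 CTTTGA, at 250 and 30 bases. TTTAT or TTTAC was found in 7 of the 10 list genes that have a window, and in 52% of 27025 promoter windows of the same length, while CTTTGA was found in 1 of the 10 and in 14% of all. These are matches of letters, and no binding was measured.

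Regional genes moved beside the members. Of all genes tested, 1.78% were called lower in the posterior part and 1.86% higher. Of 12 proximal intestinal genes 8 were lower in the posterior part and none higher, with a median of -3.44. Among them were the secreted Wnt antagonist gene Sfrp5 (-8.46 ± 0.55), the alcohol dehydrogenase gene Adh1 (-3.45 ± 0.41), the fatty acid carrier gene Fabp1 (-5.71 ± 0.69) and the homeobox gene Onecut2 (-5.51 ± 0.73). Among 10 ileal and colonic genes tested, the bile acid transporter gene Slc10a2 was higher in the posterior part (3.77 ± 1.09), and Lypd8, Aqp8 and Slc26a3 were lower. All 16 Hox genes of groups 9 to 13 matched the files, and of 7 tested between the gut parts none was called. The SE worked back from the test's F value was 7892 to 16536 for Hoxa13, Hoxb9, Hoxc9 and Hoxd10 and 38.4 for Hoxa10. Values of this size come from an F near 0 and are not errors on the log2 scale. For these genes the test cannot decide whether the parts differ.

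With stage, 6 of the 10 ileal and colonic genes rose, against 15.6% of all genes, among them Lypd8 by 2.38 ± 0.18. Lypd8 rose by 3.06 ± 0.20 to the anterior and by 1.70 ± 0.19 to the posterior part. Proximal genes also rose with stage, Adh1 (2.01 ± 0.36), Creb3l3 (4.27 ± 1.03), Apoa4 (2.41 ± 0.74) and Rbp2 (1.21 ± 0.48), while Sfrp5 fell (-1.71 ± 0.39). With Lgr5 in unlabelled cells at E13.5, 4 proximal genes were lower in the Axin2 line, where 0.87% of all genes were called in either direction. They were Sfrp5 (-9.13 ± 0.96), Gata4 (-4.002 ± 0.64), Onecut2 (-7.11 ± 1.34) and Fabp1 (-5.17 ± 1.19). In the Id2 line, where 74 of 15513 genes were called, 1 proximal gene was lower, Sfrp5 (-4.65 ± 0.76). So at E13.5 the gate in which Cdx1 was higher was also lower in these proximal genes.

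Of 15 Wnt target genes 2 were called with Lgr5 in unlabelled cells of the Axin2 line at E13.5, where 0.438% of all genes were called higher. Both were higher: Ascl2 (3.18 ± 0.51) and Lgr5 itself, on which the cells were sorted. With stage 2 rose, Myc and Notum, and 4 fell, Sp5, Tnfrsf19, Nkd1 and Tcf7, beside the 15.6% and 17.9% of all genes that did. Of 12 foregut and stomach genes 6 were tested, and with stage 2 fell, Krt4 (-3.75 ± 0.98) and Gkn2 (-3.13 ± 0.88). In the Lgr5 comparison at E13.5 in the Axin2 line 1 of them was called, Gkn3 (-8.16 ± 1.94). Between the gut parts Krt4 was called higher (5.28 ± 1.42) and Gkn3 lower (-6.31 ± 1.02) in the posterior part.

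**Figure D4:**
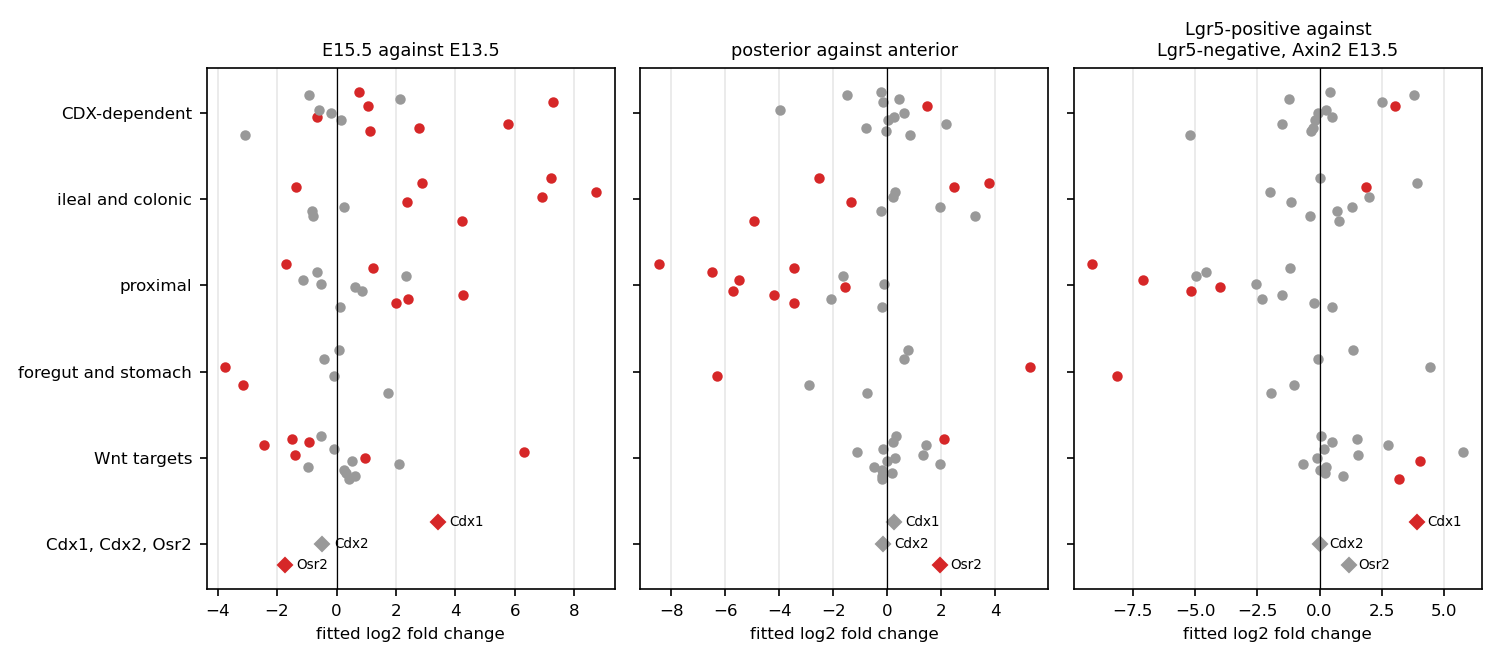
Fitted log2 fold change of each tested gene of 5 lists and of the 3 members, for stage, for gut part and for the Lgr5 gate of unlabelled cells at E13.5 in the Axin2 line; red marks an adjusted p below 0.05 in edgeR over all genes, and vertical offsets within a list only separate points. Proximal genes lie to the left for gut part and for the Lgr5 gate, Osr2 is red for stage and gut part, and Cdx1 is red for stage and the Lgr5 gate.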

How the data were processed

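RNA of 45 libraries was amplified over 15 cycles. The deposited values are read counts per gene; per the submitters' processing notes, bcl2fastq 1.8.4, STAR 2.3.1z13, SAMtools 1.2, HTSeq 0.6.1p1, DESeq2 1.14.1 and build mm9 were used by the authors, with no order or role given. No strand setting of the counting was found, and a gene and its antisense partner cannot be told apart. The 5 closing entries of each file name no gene and were left out of library sizes. Counts were tested with edgeR 4.0.16 (R 4.3.3; TMM scaling, robust quasi-likelihood test, minimum count 10, minimum total 15) in 1 fit of all 45 libraries, with 15 group means and 30 residual degrees of freedom. P-values were adjusted by Benjamini-Hochberg over 15513 genes, with a threshold of 0.05. The SE of an edgeR value was worked back as the absolute log2 fold change divided by the square root of the quasi-likelihood F. The comparisons numbered 24. CPM, a gene's counts scaled by the total of gene reads, were computed from the counts. Amplified reads are not independent molecules.

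Named genes were the 3 members, the called genes of listed gene groups, and the 5 genes most alike and the 3 most opposite in group means, among genes with a log2 CPM of at least 3 and an SD of at least 0.5. The members and lists were chosen with earlier results of these data known. The procedure was tested on simulated counts. Alternatives were DESeq2 1.42.0 size factors and test, no filter, only the libraries of the setting, the replicate number as a block, and each library left out. Replicate pairs differed by 14.3 to 346 times counting error (chi-square per degree of freedom), so none was counted as a duplicate. Same-numbered libraries were taken as paired where all 3 correlations of their deviations from the group means, over 9289 genes, were above 0.1. This held in 9 of 17 comparisons, for example 0.236 to 0.727 for the Lgr5 gate at E13.5 in the Axin2 line and 0.28 to 0.499 in the Id2 line. The labels do not say what the numbers mark. One gene of the ileal and colonic list is not reported here.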

Additional observations from a re-analysis of the deposited data

How the results depend on the processing

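No called value of the 3 genes changed sign under any alternative. Of 72 tests, direction and call were kept in 70 with median ratio scaling in edgeR, 67 in DESeq2, 71 with no filter, 65 with only the libraries of a setting and 67 with replicate numbers as a block, and in 11 of 15 without the 4 Id2 libraries numbered 2. For Cdx1 the Lgr5-gate value in the Id2 line was 2.49 in DESeq2 and 3.12 without the 4 libraries numbered 2, an alternative chosen after seeing the data, and both were called. The change of the Cdx1 Lgr5-gate difference with stage was called at -3.44 in DESeq2, at -3.45 with the libraries of the setting and at -3.48 with the block (adjusted p = 0.0427). Cdx1 among labelled Id2 cells was not called at 3.01 with no filter or at 2.98 with the libraries of the setting, and in the posterior Lgr5 comparison it was called at 0.57 with those libraries. Osr2 with Lgr5 was called in the Axin2 line at 1.17 with the block and 1.15 with the libraries of the setting, and in the Id2 line at 1.33 with the block and 1.26 in DESeq2. Among labelled Id2 cells Osr2 was not called at 1.57 with the libraries of the setting. Cdx2 was called with the block for stage (-0.49, adjusted p = 0.0165) and for the posterior part against E13.5 (-0.57, adjusted p = 0.0245). Pairing was not checked for these 2 because several gates are averaged, and the block pairs nothing between embryos of different stages. The block changed no other call. The cause of these changes was not tested. Uncalled values near 0 changed sign. Cdx2 with Lgr5 at E13.5 in the Axin2 line was -0.0063 with median ratio scaling, -0.0062 in DESeq2 and -0.021 with the libraries of the setting, and Osr2 with Lgr5 among labelled Axin2 cells was 0.0078, 0.0078 and 0.029. Without the Id2 libraries numbered 2, labelled against unlabelled Lgr5-positive cells gave 0.069 for Cdx1 and 0.33 for Cdx2, and labelled against Lgr5-negative cells gave 0.19 for Cdx1.

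With each library left out in turn, Cdx1 ranged from 2.85 to 3.57 for Lgr5 among labelled Axin2 cells and from 1.89 to 3.76 among labelled Id2 cells. Cdx2 ranged from -0.56 to -0.28 for stage and from -0.64 to -0.36 for the posterior part against E13.5. Osr2 ranged from 1.65 to 2.01 between the gut parts in labelled cells, from 1.33 to 1.94 in Lgr5-positive cells, and from 1.28 to 1.97 for Lgr5 among labelled Id2 cells. Ranges that crossed 0, all uncalled, follow. For Lgr5 in unlabelled cells Cdx2 ranged from -0.27 to 0.48 at E13.5 in the Axin2 line, from -0.29 to 0.52 in the Id2 line and from -0.54 to 0.094 in the anterior part, where Cdx1 ranged from -0.070 to 0.53. Osr2 ranged from -0.21 to 0.37 in the posterior part. For Lgr5 among labelled cells Osr2 ranged from -0.18 to 0.10 in the Axin2 line at E13.5 and Cdx2 from -0.40 to 0.49 in the posterior part. For the label within Lgr5-positive cells Cdx1 ranged from -0.17 to 0.030, Cdx2 from -0.76 to 0.14 and Osr2 from -0.092 to 0.48 in the posterior part, and Cdx1 from -1.44 to 0.50 and Cdx2 from -0.48 to 0.26 in the Id2 line. For labelled against Lgr5-negative cells Cdx2 ranged from -0.13 to 0.62 at E13.5 in the Axin2 line and from -0.32 to 0.14 in the anterior part, and Osr2 from -0.10 to 0.24 in the posterior part. Between the gut parts in labelled cells Cdx1 ranged from -0.012 to 0.20 and Cdx2 from -0.35 to 0.19. The Lgr5-gate difference changed with stage by -0.18 to 0.57 for Cdx2, and between the lines by -0.35 to 0.52 for Cdx2 and -0.25 to 0.47 for Osr2. Counts of genes called depended more on the fit. Between the gut parts 565 genes were called, 928 with the block and 1753 with the libraries of the setting. In single gates 42, 76 and 51 genes (labelled, Lgr5-positive and Lgr5-negative) became 113, 191 and 160 with the block, 233, 364 and 439 with the libraries of the setting, and 168, 240 and 209 in DESeq2. For Lgr5 at E13.5 in the Axin2 line 0.87% of genes became 220 genes with the block and 251 in DESeq2. In the Id2 line 74 became 268 with the block, 338 in DESeq2, 49 with no filter, 2 with the libraries of the setting and 19 without the libraries numbered 2. In the posterior part 61 became 384 with the block, 385 in DESeq2 and 1032 with the libraries of the setting. Among labelled cells 238 in the Axin2 line became 1237 with the block, 911 in DESeq2 and 132 with no filter, and 187 in the Id2 line became 508 with the block, 685 in DESeq2, 73 without the libraries numbered 2 and 0 with the libraries of the setting. In labelled cells of the posterior part the block called 1 gene where 0 had been called. For the change with stage 26 became 75 with the block, 91 with the libraries of the setting and 144 in DESeq2. For the label within Lgr5-positive cells 50 in the Axin2 line became 889 with the block, 629 in DESeq2, 21 with no filter and 11 with the libraries of the setting, and 6 in the Id2 line became 146 in DESeq2, 2 with no filter and 0 with the libraries of the setting. In single gates the SE of Cdx1 was 0.68 or more in the fit of all libraries and 0.13 for the posterior Lgr5 comparison with the libraries of the setting.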
